A study of Mus musculus with 20 samples.

Results

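Interferon-induced GTPases are proteins that vertebrate cells make in quantity when an interferon reaches them. The members described here are 10 listed mouse genes out of 55487 genes counted, namely 7 guanylate-binding proteins (Gbp2, Gbp3, Gbp4, Gbp5, Gbp6, Gbp7 and Gbp9) and 3 immunity-related GTPases (Irgm1, Igtp and Iigp1). The list was selected on the counts of these same libraries, where interferon-response genes tended to be higher with YB-1 than with HSP70. The treatment differences below are therefore a description without a test. Their levels were followed in 2 brain regions, hippocampus and cortex, of outbred NMRI mice whose olfactory bulbs had been removed. The libraries form 4 groups of 5, namely hippocampus with YB-1, hippocampus with HSP70, cortex with YB-1 and cortex with HSP70. All of these mice had the surgery, and from day 14 after it they received 1 recombinant protein through the nose daily for 21 days. The dose was 6.4 µg of YB-1, a cold shock protein that binds DNA and RNA, or 4 µg of human HSP70, the stress-inducible chaperone. The 2 proteins thus differ in dose, and with no vehicle or unoperated animals analysed here, each difference can be read as a rise with YB-1 or a fall with HSP70. The sources used here give neither age nor sex, and the labels do not name the animal behind each library.

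The guanylate-binding proteins are large GTPases that assemble on membranes of intracellular pathogens and on damaged endosomes, and in mice several of them feed inflammasome activation. The immunity-related GTPases act on the vacuoles of parasites and bacteria: Iigp1 is an effector that loads onto the vacuole, while Irgm1 and Igtp sit on the cell's own membranes and keep the effectors inactive there. Interferon gamma signals through its receptor and the kinases Jak1 and Jak2, and the response is read at a gamma-activated site (GAS) in its target genes. Type I interferons act on an interferon-stimulated response element (ISRE), which a complex holding Irf9 binds and which Irf1 also recognises. In the brain, microglia, endothelium, astrocytes and incoming lymphocytes and monocytes can all respond.

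The upstream sequences of the members were examined for these elements because the genes varied together across libraries, as described further on. RefSeq promoter windows of GRCm38.p6, an earlier build than the GRCm39 of the counts, were held for 6 of the 10 members (Gbp2, Gbp3, Gbp5, Gbp7, Irgm1 and Igtp), with 7 start sites in all. The 250 bases before the annotated start are shown for the 3 members with the highest level per length and for Gbp5, which had the largest difference between treatments in the hippocampus. Letters are lower case, 5′ to 3′ on the strand of the gene, with capitals for every match to the ISRE core GAAANNGAAA on either strand or to the palindromic GAS core TTCNNNGAA, and overlapping matches run together.
Gbp2: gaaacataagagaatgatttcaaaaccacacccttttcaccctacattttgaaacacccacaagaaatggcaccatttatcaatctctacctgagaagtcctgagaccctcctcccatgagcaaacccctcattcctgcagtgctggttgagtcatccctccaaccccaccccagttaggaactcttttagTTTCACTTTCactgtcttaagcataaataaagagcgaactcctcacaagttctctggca
Gbp5: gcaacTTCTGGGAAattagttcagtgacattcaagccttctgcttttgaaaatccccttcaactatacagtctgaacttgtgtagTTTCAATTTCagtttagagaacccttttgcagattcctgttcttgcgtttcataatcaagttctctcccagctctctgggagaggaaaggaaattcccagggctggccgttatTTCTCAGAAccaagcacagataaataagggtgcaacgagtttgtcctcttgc
Irgm1: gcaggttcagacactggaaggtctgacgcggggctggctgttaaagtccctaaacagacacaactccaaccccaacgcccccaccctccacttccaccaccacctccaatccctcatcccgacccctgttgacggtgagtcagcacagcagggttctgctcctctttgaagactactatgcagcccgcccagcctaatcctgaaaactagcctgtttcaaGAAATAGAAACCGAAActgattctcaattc
Igtp: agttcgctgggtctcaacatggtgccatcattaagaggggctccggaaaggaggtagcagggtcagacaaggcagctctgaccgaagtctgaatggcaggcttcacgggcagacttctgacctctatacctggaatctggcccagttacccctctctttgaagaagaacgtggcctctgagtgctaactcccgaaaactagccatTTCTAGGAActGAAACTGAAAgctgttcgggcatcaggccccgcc
The windows are chr3:142620413-142620662 on the plus strand for Gbp2, chr3:142496684-142496933 on the plus strand for Gbp5, chr11:48871421-48871670 on the minus strand for Irgm1 and chr11:58199306-58199555 on the plus strand for Igtp. Each ends at the base before the annotated transcription start.

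An ISRE core was present in 6 of the 7 windows and a GAS core in 3, and the 3 windows with a GAS core (Gbp5, Gbp7 and Igtp) held both. Among all 32851 promoter windows of the same length, 2.98% held the ISRE core, 7.02% the GAS core and 0.332% both. The ISRE core of Gbp2 began 59 bases before the start, and in Gbp5 it began 165 bases before the start, between GAS cores at 245 and 52 bases. Irgm1 carried 2 overlapping ISRE cores, at 30 and 24 bases before the start. In Igtp a GAS core at 45 bases and an ISRE core at 34 bases lay side by side. The second start site of Gbp3 was the window without either core, while its first start site had 2 overlapping ISRE cores. These matches describe the letters of the window and are not evidence of binding.

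**Figure D1:**
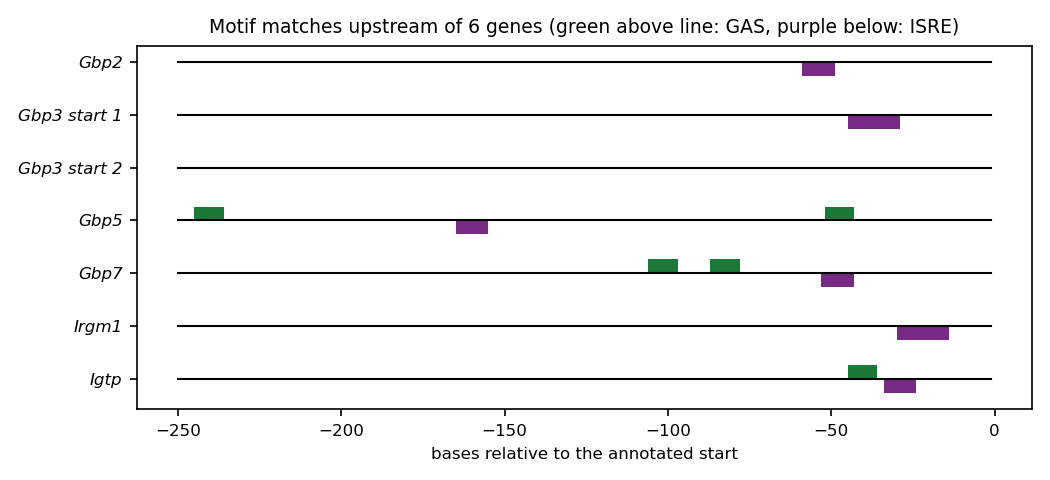
Matches to the 2 cores in the 250 bases before each annotated start (horizontal axis, bases relative to the start), with GAS above each line in green and ISRE below it in purple. ISRE cores appear in 6 of 7 windows, and GAS cores in Gbp5, Gbp7 and Igtp.

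The libraries held 6414215 to 15148078 reads assigned to genes. In the hippocampus the depths overlapped, with 7236195 to 10166968 reads for YB-1 and 7756835 to 13053910 for HSP70. In the cortex they did not, with 6414215 to 10763465 for YB-1 and 12283392 to 15148078 for HSP70, so depth and treatment cannot be told apart there. Tissue labels were checked by markers. Summed hippocampal markers lay at 205 to 288 CPM (reads of a gene scaled to a common library size and composition) with YB-1 and 163 to 226 with HSP70 in the hippocampus, against 23.1 to 41.4 CPM with YB-1 and 26.9 to 41.4 CPM with HSP70 in the cortex. The cortical list lay at 121 to 171 CPM with YB-1 and 127 to 176 CPM with HSP70 in the hippocampus, against 393 to 483 CPM with YB-1 and 418 to 479 CPM with HSP70 in the cortex. In the test between tissues given below, 5 of the 6 cortical markers were called lower in the hippocampus and 1 was called higher.

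Transcripts of all 10 members were detected, with a wide span of levels. Per kilobase of exon, Igtp averaged 88.1 ± 51.8 CPM over the 20 libraries (SD), Gbp2 34.2 ± 17.3 and Irgm1 22.5 ± 11.8. The next level was much lower, with Gbp5 at 3.47 ± 1.97, Gbp3 at 3.45 ± 1.86 and Iigp1 at 2.48 ± 1.86 CPM per kilobase. Below them came Gbp9 at 1.52 ± 1.01, Gbp4 at 1.15 ± 0.64, Gbp7 at 0.632 ± 0.557 and Gbp6 at 0.190 ± 0.195. Of the neighbours in this order, only Irgm1 and Gbp5 had ranges of mean ± SD that did not overlap. Gbp6 rested on 241 reads in all libraries together and Gbp7 on 761, against 36436 for Igtp.

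Some of these reads could belong to a relative. The exons of Gbp4 overlap those of Gbp8 and Gbp9 on the same strand, those of Gbp9 overlap Gbp8, and those of Igtp overlap Irgm2, in the annotation used for names. How reads that fit several family members were counted is not recorded, since the deposited entry for multi-mapping reads is 0 in every library. The values of Gbp4, Gbp9 and Igtp are therefore uncertain, and those of other members may be too. Values given below for Gbp8 and Gbp9 may share reads.

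The comparison of YB-1 with HSP70 asks how the delivered proteins differ in their effect on brain expression after bulbectomy. Gbp2, which in mice attacks the vacuole of Toxoplasma, was among the most abundant members. Its hippocampal CPM, in the order of replicates 1 to 5, were 160.1, 66.7, 96.5, 45.2 and 119 with YB-1, against 76.2, 39.4, 40.4, 79.3 and 52.6 with HSP70. In the cortex they were 146, 90.2, 80.1, 59.5 and 211 with YB-1, against 85.4, 46.6, 78.3, 69.2 and 81.5 with HSP70. In both tissues replicates 1 and 5 stood highest with YB-1 and the lowest YB-1 library lay inside the HSP70 range, so the groups overlapped. The log2 fold change was 0.76 ± 0.32 (SE) in the hippocampus and 0.70 ± 0.30 in the cortex.

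Gbp5, a promoter of NLRP3 inflammasome assembly in mice, showed the largest difference in the hippocampus. It was at 36.0, 17.7, 28.4, 14.5 and 35.7 CPM with YB-1, against 17.8, 8.49, 9.88, 12.1 and 8.72 CPM with HSP70. Only HSP70 replicate 1 reached into the YB-1 range. The cortical values were 32.0, 27.1, 29.3, 16.7 and 65.1 CPM with YB-1, against 26.4, 14.4, 23.2, 20.3 and 17.6 CPM with HSP70. Here YB-1 replicate 5 stood far above the rest and YB-1 replicate 4 lay within the HSP70 range. The log2 fold change was 1.21 ± 0.28 in the hippocampus and 0.74 ± 0.28 in the cortex.

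Irgm1, a regulator that guards endomembranes and autophagy in mice, followed the same animals. Its hippocampal CPM were 215, 145, 134, 67.6 and 233 with YB-1, against 149, 46.2, 93.8, 91.7 and 82.2 with HSP70. Its cortical CPM were 215, 178, 98.1, 77.8 and 308 with YB-1, against 134, 56.6, 107, 92.6 and 86.2 with HSP70. YB-1 replicate 4 was the lowest of its group in both tissues and HSP70 replicate 1 the highest of its own, and the groups overlapped. The log2 fold change was 0.78 ± 0.34 in the hippocampus and 0.88 ± 0.36 in the cortex.

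Igtp, also called Irgm3 and the second regulator, had the most reads of the members. In the hippocampus it was at 361, 258, 124, 92.9 and 338 CPM with YB-1, against 195, 48.6, 99.7, 124 and 171 CPM with HSP70. Its cortical values were 404, 274, 86.1, 89.6 and 278 CPM with YB-1, against 156, 65.6, 143, 121 and 132 CPM with HSP70. With YB-1 the libraries fell into a high set (replicates 1, 2 and 5) and a low set (3 and 4) in both tissues, and the low set lay within the HSP70 range. The log2 fold change was 0.88 ± 0.46 in the hippocampus and 0.87 ± 0.46 in the cortex.

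Iigp1, the effector, spread more widely. Its hippocampal CPM were 30.3, 5.20, 12.5, 7.72 and 28.7 with YB-1, against 20.9, 3.54, 5.71, 9.28 and 5.11 with HSP70. Its cortical CPM were 31.3, 21.2, 7.07, 2.94 and 38.1 with YB-1, against 23.6, 5.96, 9.10, 11.2 and 9.07 with HSP70. The lowest cortical library of all was YB-1 replicate 4 and the highest YB-1 replicate 5. The log2 fold change was 0.92 ± 0.59 in the hippocampus and 0.78 ± 0.65 in the cortex.

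Gbp9 and Gbp3 lie in the gene clusters of mouse chromosomes 5 and 3. In the hippocampus Gbp9 had 15.3, 5.20, 4.67, 2.03 and 12.7 CPM with YB-1, against 10.99, 3.30, 2.75, 5.41 and 2.86 CPM with HSP70. In the cortex Gbp9 was at 15.5, 7.87, 7.17, 3.30 and 21.0 CPM with YB-1, against 12.5, 4.22, 6.62, 8.82 and 4.79 CPM with HSP70. Replicate 1 was high under both treatments, and the groups overlapped. The hippocampal values of Gbp3 were 16.05, 8.71, 7.73, 9.48 and 11.9 CPM with YB-1, against 12.9, 4.25, 4.28, 6.58 and 9.17 CPM with HSP70. In the cortex Gbp3 was at 15.5, 15.6, 10.001, 8.26 and 29.3 CPM with YB-1, against 22.0, 7.36, 9.84, 8.51 and 7.55 CPM with HSP70. Cortical HSP70 replicate 1 stood apart from the other 4 of its group and above 4 of the 5 YB-1 libraries. The log2 fold changes were 0.65 ± 0.52 and 0.58 ± 0.43 for Gbp9 and 0.54 ± 0.32 and 0.51 ± 0.37 for Gbp3, in hippocampus and cortex in that order.

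The remaining members were low. Gbp4 ranged from 5.01 to 15.9 CPM with YB-1 and 2.48 to 10.4 CPM with HSP70 in the hippocampus, and from 2.20 to 17.6 CPM with YB-1 and 3.39 to 13.3 CPM with HSP70 in the cortex. Gbp7, which in mice takes part in assembling the phagocyte oxidase, ranged from 0.846 to 9.31 CPM with YB-1 and 1.30 to 4.49 CPM with HSP70 in the hippocampus, and from 0.734 to 12.2 CPM with YB-1 and 0.760 to 6.86 CPM with HSP70 in the cortex. Their log2 fold changes were 0.73 ± 0.40 and 0.52 ± 0.46 for Gbp4, and 0.90 ± 0.57 and 0.59 ± 0.70 for Gbp7. Gbp6 averaged 1.04 ± 0.42 CPM with YB-1 and 0.566 ± 0.605 CPM with HSP70 in the hippocampus (SD, n = 5 each), where it did not pass the filter on low counts. In the cortex it averaged 1.39 ± 0.74 CPM with YB-1 and 1.52 ± 2.15 CPM with HSP70, with a log2 fold change of -0.15 ± 0.68. Its HSP70 mean rested on replicate 3, which held 5.35 CPM, or 80 reads, and without that library the fold change was 1.29.

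**Figure D2:**
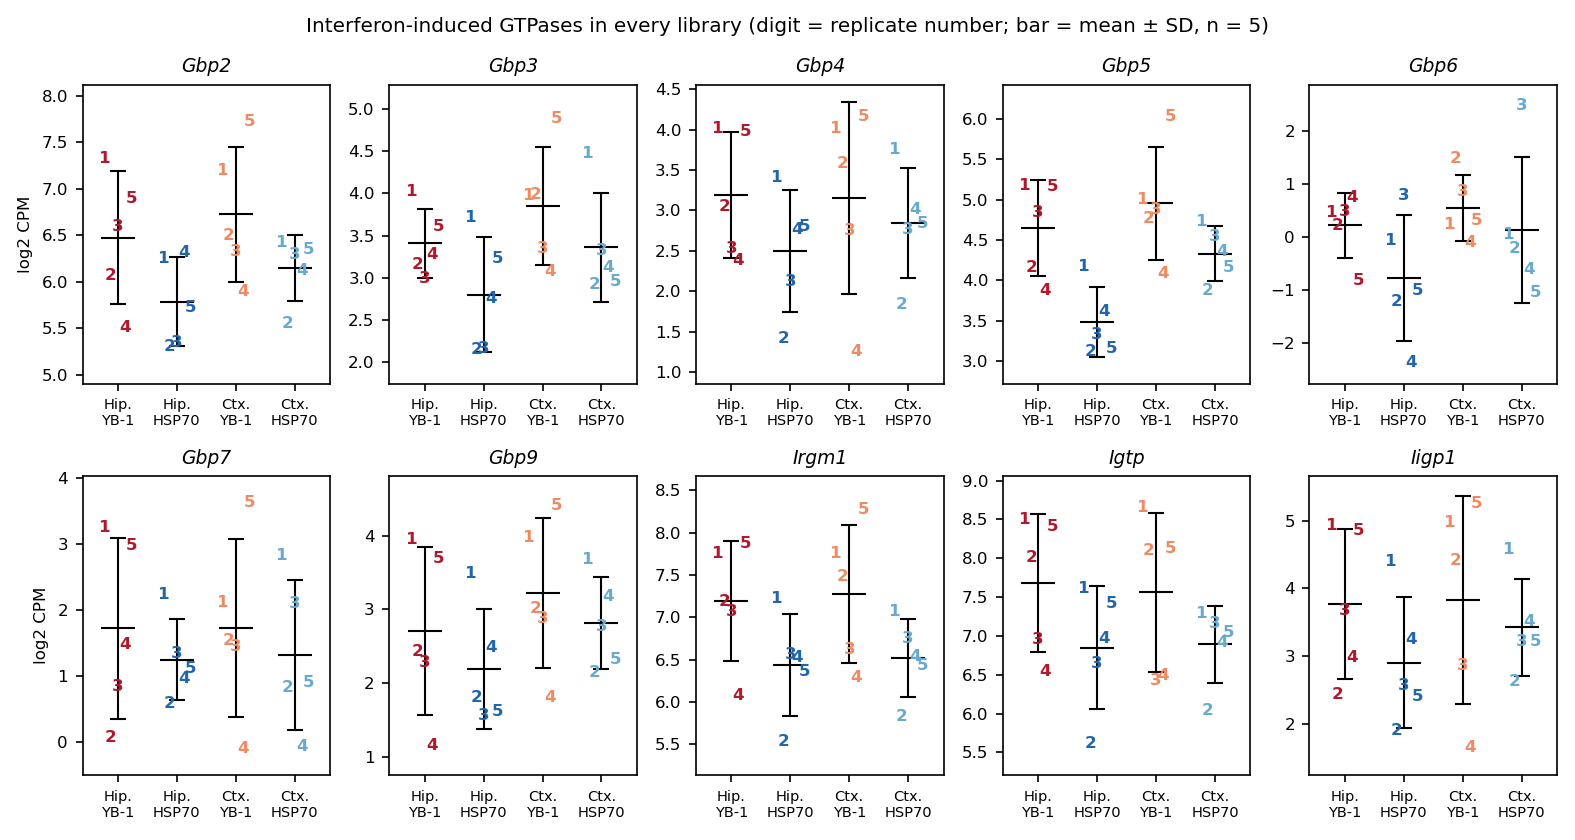
Log2 CPM of each member (vertical axis, own scale per panel) in the 20 libraries, by tissue and treatment, with the digit giving the replicate number and the bar the mean ± SD (n = 5). Groups overlap in every panel. The digits 1 and 5 with YB-1 and 1 with HSP70 are often high, and Gbp6 follows another order.

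**Figure D3:**
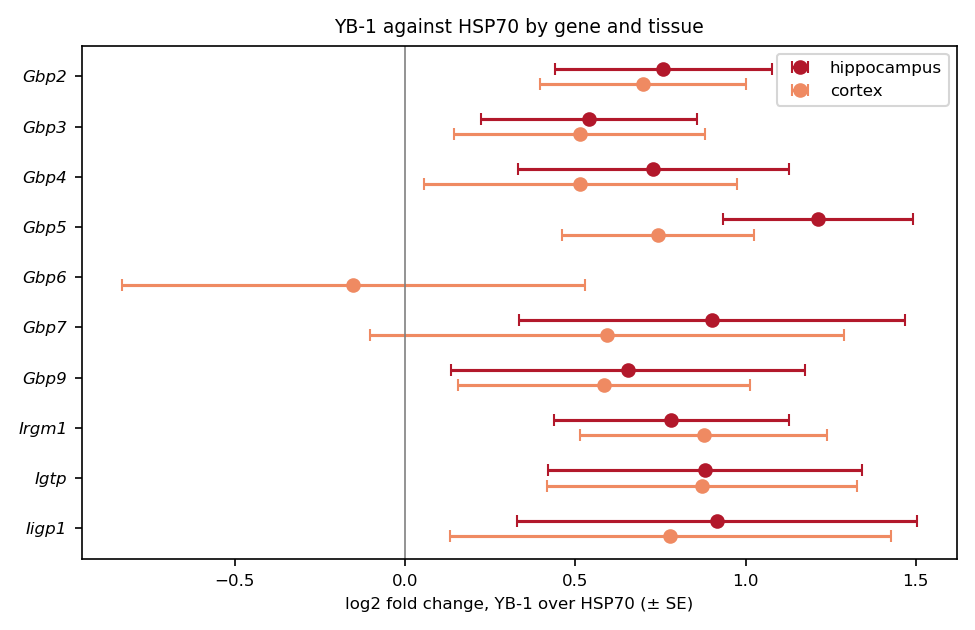
Log2 fold change of YB-1 over HSP70 (horizontal axis, ± SE) for each member in the hippocampus and the cortex. The values lie above 0 except for Gbp6 in the cortex, at -0.15 ± 0.68, and Gbp6 has no hippocampal value.

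Of the 10 members, 9 passed the filter on low counts in the hippocampus and 10 in the cortex. A log2 fold change above 0 was seen in 9 of those 9 and 9 of those 10, and in 49.3% and 50.9% of all genes tested. The members' median was 0.78 (hippocampus) and 0.65 (cortex), beside medians of -0.00 and 0.01 over all genes tested. The choice of members used these contrasts. By edgeR's quasi-likelihood test no gene at all passed an adjusted p of 0.05 in the hippocampus (0 of 13723, or 0%, with 329, or 2.4%, at an unadjusted p under 0.05) or the cortex (0 of 14114, or 0%, with 774, or 5.48%). DESeq2 called 0 and 4 genes, with 518 and 1080 at an unadjusted p under 0.05. Groups that did not overlap were seen for 0.474% of genes in the hippocampus and 0.829% in the cortex, and for no member. In a bulk sample, fewer cells of a type and less RNA per cell cannot be told apart.

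Leaving out 1 library moved several of these differences by more than 1.5 times. Without hippocampal YB-1 replicate 1 the log2 fold change was 0.51 for Gbp2, 0.35 for Gbp3, 0.44 for Gbp7, 0.28 for Gbp9 and 0.60 for Iigp1, and without YB-1 replicate 5 it was 0.42 for Gbp9. Without hippocampal HSP70 replicate 1 it was 0.84 for Gbp3, 1.15 for Gbp9 and 1.505 for Iigp1. In the cortex YB-1 replicate 5 moved 9 members. Without it the values were 0.38 for Gbp2, 0.16 for Gbp3, 0.28 for Gbp4, 0.37 for Gbp5, -0.05 for Gbp6, -0.21 for Gbp7, 0.22 for Gbp9, 0.58 for Irgm1 and 0.42 for Iigp1. Without cortical HSP70 replicate 1 they were 0.93 for Gbp3, 0.81 for Gbp4, 1.16 for Gbp7 and 1.20 for Iigp1. Leaving out cortical YB-1 replicate 1 gave 0.34 for Gbp4 and 0.56 for Igtp. Leaving out HSP70 replicate 2 gave 0.33 for Gbp4, and leaving out HSP70 replicate 4 gave 0.35 for Gbp7. The cortical value of Gbp6 rests on few reads and moved with most libraries. It was -0.31, -0.34, 1.29, -0.38 and -0.41 without HSP70 replicates 1 to 5, and -0.04, -0.47 and -0.02 without YB-1 replicates 1, 2 and 4.

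The difference of the treatment effect between hippocampus and cortex was within its standard error for 9 of the 10 members in the fit without the pairing of tissues by animal. On the log2 scale it was 0.46 ± 0.43 for Gbp5, -0.10 ± 0.54 for Irgm1, 0.01 ± 0.68 for Igtp and 0.99 ± 1.06 for Gbp6. For Gbp6 it was -0.44 without cortical HSP70 replicate 3. With the animal as a block the values of 3 members exceeded their standard errors, at 0.54 ± 0.23 for Gbp5, 0.31 ± 0.30 for Gbp4 and 0.85 ± 0.79 for Gbp6. These values use the treatment contrast on which the list was selected and carry no test. Of all 14616 genes, edgeR called none (0%), with 227 at an unadjusted p under 0.05, and DESeq2 called none, with 446 at that level.

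The comparison of hippocampus with cortex is balanced over treatments. It therefore does not use the treatment contrast on which the list was selected, and it was tested. The members were still chosen with earlier results of these data known. Gbp5, Gbp9 and Gbp3 were lower in the hippocampus than in the cortex when the tissues of an animal were paired. Gbp2, Gbp4, Gbp6, Gbp7, Irgm1, Igtp and Iigp1 were not called. Gbp5 averaged 26.4 ± 10.01 CPM with YB-1 and 11.4 ± 3.84 CPM with HSP70 in the hippocampus, against 34.0 ± 18.3 CPM with YB-1 and 20.4 ± 4.67 CPM with HSP70 in the cortex (SD, n = 5 each). Its level was lower in the hippocampus in 9 of 10 animals, that of Gbp9 in 10 of 10 and that of Gbp3 in 7 of 10. Igtp was lower there in 4 of 10 animals and Gbp7 in 6 of 10. Irgm1, Gbp2 and Gbp6 were each lower in 7 of 10, and Gbp4 and Iigp1 in 8 of 10.

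The test of this difference depended on pairing the tissues of an animal. Same-numbered hippocampal and cortical libraries of a treatment deviated together over all genes, so the numbers were taken to mark the animal. Hippocampal YB-1 library 1 was more like cortical YB-1 library 5 than its own number. The blocked fit without YB-1 animals 1 and 5 is given in the closing section. In the fit without the pairing, edgeR's quasi-likelihood test called 2320 of 14616 genes (15.9%, of which 8.55% of genes were higher and 7.32% lower in the hippocampus) and no member, the nearest being Gbp5 at a log2 fold change of -0.60 ± 0.22 (adjusted p = 0.0624) and Gbp3 at -0.56 ± 0.26 (adjusted p = 0.160). These 2 members of 10, and 26.8% of all genes, had an unadjusted p under 0.05. In 9 of the 10 members the fold change was below 0, with a median of -0.31 against 0.00 over all genes. Among these was Gbp6, at -0.93 ± 0.53, which passed the filter on low counts in the cortex and not in the hippocampus.

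With the animal as a block, 2888 genes (19.8%) were called, of which 1429 (9.78%) were lower and 1459 (9.98%) higher in the hippocampus. By edgeR's test these included 3 of the 10 members. Gbp5 was at -0.59 ± 0.12 (adjusted p = 0.000646), Gbp9 at -0.57 ± 0.15 (adjusted p = 0.00852) and Gbp3 at -0.52 ± 0.16 (adjusted p = 0.0258). Irgm1, at -0.09 ± 0.09, and Igtp, at 0.04 ± 0.10, were estimated with small errors and not called. Gbp4 at -0.19 ± 0.15, Gbp6 at -0.85 ± 0.40, Gbp7 at -0.09 ± 0.28 and Iigp1 at -0.32 ± 0.22 had larger errors and were not called either. Gbp5 and Gbp9 passed in this fit after leaving out each of the 10 animals in turn, with adjusted p up to 0.00360 and 0.0323 in edgeR's test. Gbp3 passed in 6 of the 10, with adjusted p up to 0.101, and failed without YB-1 animal 2 or 5 or HSP70 animal 1 or 3. Gbp2, lower in 7 of 10 animals, passed in 3 of the 10 but not with all animals (-0.30 ± 0.11, adjusted p = 0.0682). For Gbp5, the blocked fit over YB-1 animals alone gave -0.32 ± 0.17 and that over HSP70 animals alone gave -0.86 ± 0.16. These values rest on single treatment groups, whose contrast selected the list, and carry no test. The difference between the treatments in this respect was 0.54 ± 0.23 with the block and 0.46 ± 0.43 without it, given without a test.

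**Figure D4:**
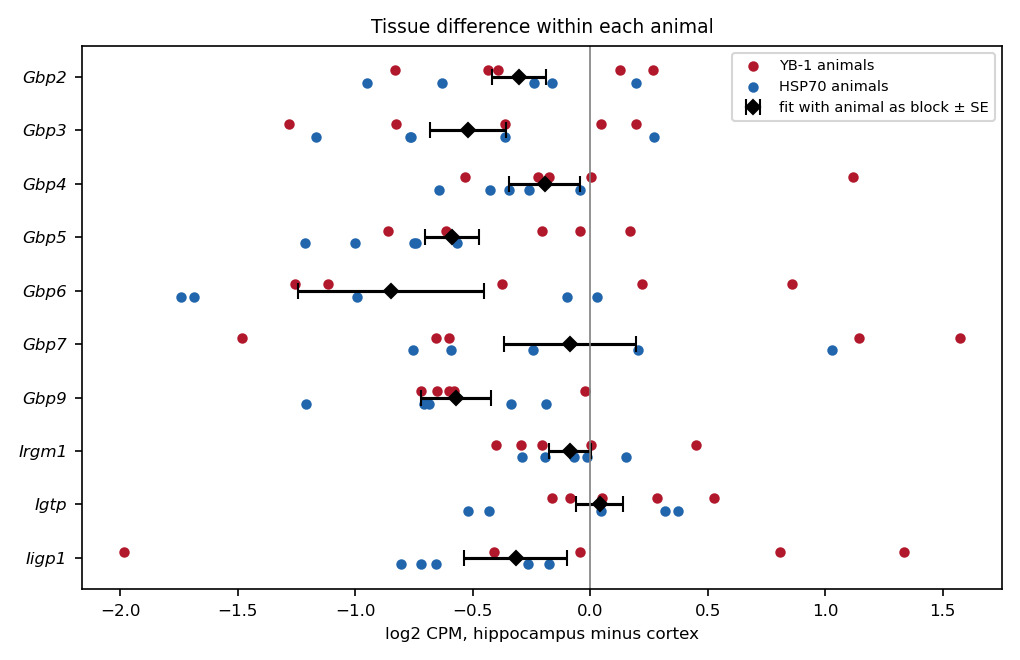
Log2 CPM in the hippocampus minus the cortex of the same animal (horizontal axis) for each member, with a point per animal (YB-1 red, HSP70 blue) and the fitted value with the animal as a block ± SE (black). Gbp9 lies below 0 in 10 of 10 animals and Gbp5 in 9, while Igtp and Irgm1 straddle 0.

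Markers of several other cell types lay mostly below 0 in the same comparison. In the fit without the pairing, 8 of 8 T cell markers had fold changes below 0 (median -0.58), with 1 called, the coreceptor Cd4 at -0.88 ± 0.27 (adjusted p = 0.0251 in edgeR's test). Values below 0 were also found for 7 of 7 tested markers of B and plasma cells (median -0.64, 1 called), 8 of 8 of microglia (median -0.18, 1 called) and 7 of 8 of endothelium (median -0.38, none called). The same held for 6 of 6 markers of neurons (median -0.26, 2 called), 5 of 5 of pericytes (median -0.20, 1 called), 5 of 6 of monocytes (median -0.41, none called), 3 of 3 tested of natural killer cells (median -0.52, none called) and 3 of 3 tested of border macrophages (median -0.40, none called). Some of these markers were too low to pass the filter in each tissue alone. It passed 5 B and plasma cell markers in the hippocampus and 6 in the cortex, and 3 and 4 of monocytes. For natural killer cells it passed 1 and 2, and for border macrophages 2 and 2. A low marker can enter through the tissue where it is higher, so these counts of direction are no test.

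Other lists lay above 0 or on both sides of it. All 5 markers of oligodendrocytes (median 1.38) and all 5 of the choroid plexus (median 4.26) were called higher in the hippocampus. Of the astrocyte markers 3 of 6 were below 0, with 1 called higher, and of the meningeal markers 3 of 6 were below 0, with 3 called lower and 1 higher.

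Over all genes, 7.32% were called lower in the hippocampus in the fit without the pairing and 9.78% with the animal as a block. With the block, the calls in the hippocampus grew to 2 lower of 8 T cell markers, 3 of 7 of B and plasma cells, 2 of 8 of microglia, 3 of 8 of endothelium and 3 of 6 of neurons. They also grew to 1 lower of 3 natural killer cell, 1 of 6 monocyte and 1 of 3 border macrophage markers, and the counts for pericytes, astrocytes, oligodendrocytes, choroid plexus and meninges were as without it. The endothelial list then had 8 of 8 values below 0. The summed CPM of a list was lower in the hippocampus in 10 of 10 animals for endothelium, in 9 for each of T cells, B and plasma cells, monocytes, natural killer cells and neurons, in 8 for border macrophages and for meninges, in 7 for pericytes and in 6 for microglia. It was lower in 0 of 10 animals for astrocytes, oligodendrocytes and choroid plexus. Of the 6 natural killer cell markers, Ncr1 had no read in any library, and no other list had a marker at 0 throughout. The part of these cells in the tissue difference of Gbp3, Gbp5 and Gbp9 was not tested.

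With equal numbers taken as 1 animal, the animal that was lowest for most members of a treatment was the same in both tissues. The highest was the same with HSP70 and not with YB-1. With YB-1, animal 4 was the lowest for 6 of 10 members in the hippocampus and 9 of 10 in the cortex, and the highest was animal 1 in the hippocampus and animal 5 in the cortex, each for 8 of 10. With HSP70, animal 1 was the highest for 8 of 10 members in the hippocampus and 9 of 10 in the cortex, and animal 2 was the lowest for 8 of 10 in each.

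After centring each group on its mean, the correlation of hippocampal and cortical log2 CPM over the 10 animals was highest for Gbp9 (Pearson's r 0.94, Spearman's rho 0.81), Irgm1 (0.92 and 0.98), Igtp (0.91 and 0.84), Gbp4 (0.88 and 0.90) and Gbp5 (0.79 and 0.85). In exact two-sided permutation tests of the pairing within treatments, the p of r was 0.00160 for Gbp9, 0.000694 for Irgm1, 0.00347 for Igtp, 0.000764 for Gbp4 and 0.00556 for Gbp5. The matching p of rho was 0.0125, 0.000208, 0.00285, 0.00188 and 0.00431. None of them passed after Benjamini-Hochberg adjustment over all 14616 genes, where the adjusted p of r lay between 0.254 and 0.343 for these 5 members and at or above 0.519 for the others, and that of rho was at least 0.290. No gene at all passed (0%), by r or by rho, and 14400 permutations allow no p below 6.94e-05.

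At an unadjusted p of r under 0.05 stood 5 of 10 members and 9.68% of all genes (1415), and the 5 members are not independent of each other. Over all genes r had a median of 0.24, with 5% of genes above 0.73. The r of the remaining members was 0.72 for Gbp2 (exact p = 0.0533), 0.67 for Iigp1 (exact p = 0.0681), 0.63 for Gbp6 (exact p = 0.130), 0.60 for Gbp7 (exact p = 0.0998) and 0.57 for Gbp3 (exact p = 0.0938). Their rho was 0.71 (exact p = 0.0377), 0.61 (exact p = 0.0958), 0.55 (exact p = 0.160), 0.58 (exact p = 0.103) and 0.53 (exact p = 0.120) in the same order. Without the 2 animals farthest from the median, r stayed at 0.95 for Gbp9, 0.84 for Irgm1, 0.85 for Igtp, 0.93 for Gbp4, 0.61 for Gbp5 and 0.78 for Gbp7. It was 0.53 for Gbp2 and 0.48 for Iigp1. For Gbp3 it was 0.25 and for Gbp6 0.14, so these relations rest on those animals, YB-1 1 and HSP70 1 for Gbp3 and HSP70 3 and 4 for Gbp6.

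**Figure D5:**
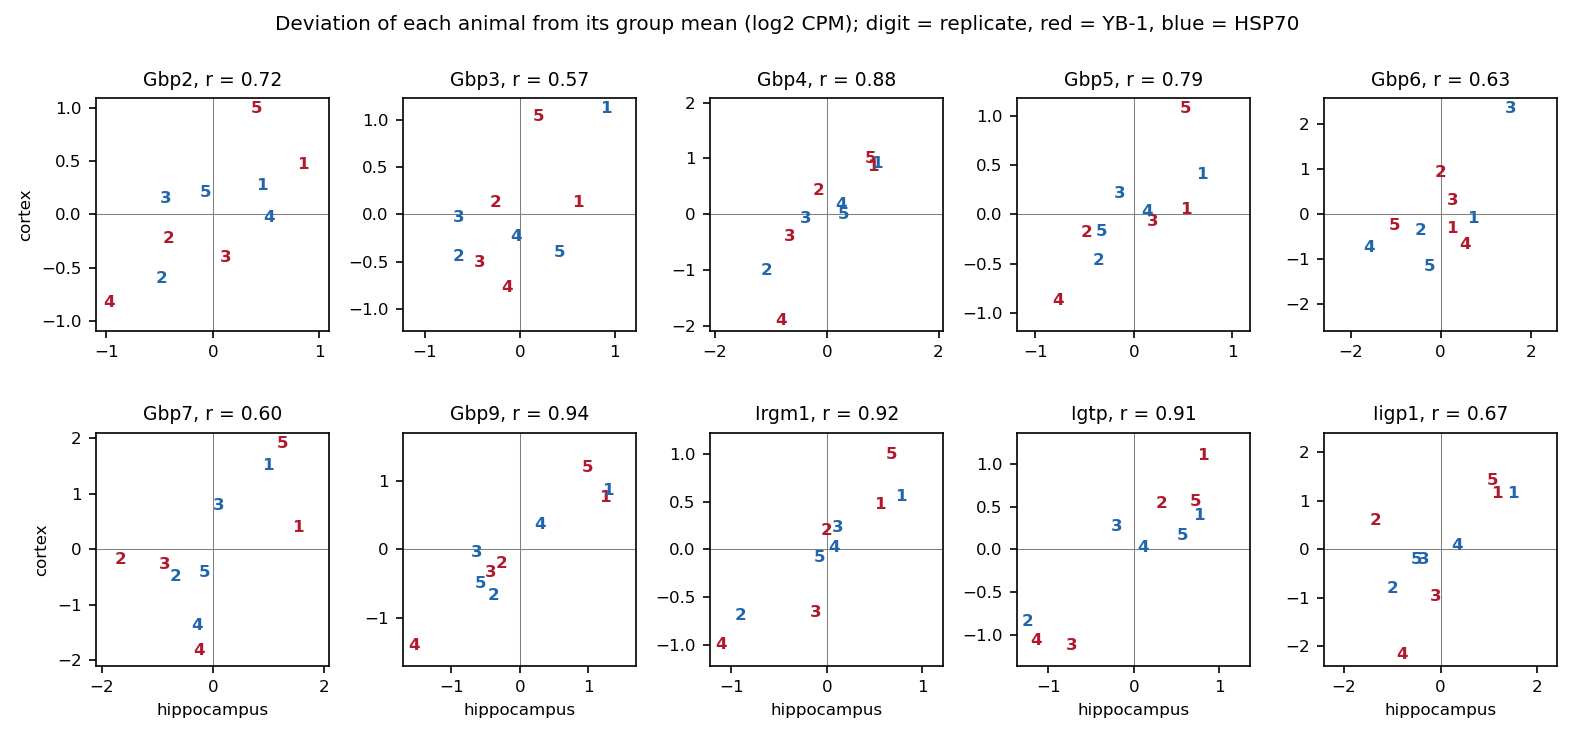
Deviation of each animal from its group mean in log2 CPM, hippocampus (horizontal) against cortex (vertical), with digits for replicates in red for YB-1 and blue for HSP70. Points follow the diagonal most closely for Gbp9, Irgm1 and Igtp, with r of 0.94, 0.92 and 0.91.

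The members also varied together. Over the 20 libraries, the correlation of group-centred log2 CPM had a median of 0.77 over the 45 pairs of members and ran from -0.16 to 0.91. Each library was a point, so the 2 tissues of each of the 10 animals entered separately and are not independent. Irgm1 and Gbp4, on different chromosomes, were the closest pair. Gbp6 stood apart, with a median r of 0.01 with the other members, and the other 9 had medians between 0.73 and 0.87.

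The genes outside the family whose group-centred level was most like the mean of the members were sought among 13951 genes with at least 1 CPM. Among the 10 most alike were Parp9 (r = 0.94), Cd274 (0.92), Ctsc (0.92), Stat2 (0.92), Hpse (0.91), Lcp1 (0.90), Oasl2 (0.89), Cxcl13 (0.89) and C1qc (0.88). Stat2 is a transcription factor of type I interferon signalling, Cd274 encodes PD-L1, Cxcl13 is a chemokine for B cells, C1qc is a complement chain of microglia and Ctsc a lysosomal protease. Parp9, a partner of antiviral signalling, averaged 10.4 ± 4.09 CPM with YB-1 and 6.18 ± 1.99 CPM with HSP70 in the hippocampus, and 13.3 ± 7.21 CPM with YB-1 and 8.32 ± 2.37 CPM with HSP70 in the cortex (SD, n = 5 each).

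The summed level of each gene list was set beside the mean of the members in the same way. The other family members (r = 0.93 with the members), the transcription factors (0.88), interferon gamma targets (0.87) and antiviral targets (0.86) were closest. Marker lists followed, with monocytes at 0.84, B and plasma cells at 0.80, natural killer cells at 0.78, T cells at 0.73, astrocytes at 0.72 and microglia at 0.69. Inflammasome partners stood at 0.84 and inhibitors at 0.81, ligands at 0.56 and receptors and kinases at 0.52. Lower were the markers of the hippocampus (0.33), endothelium (0.31) and the cortex (-0.02). Neurons (-0.49), border macrophages (-0.38), oligodendrocytes (-0.38) and pericytes (-0.37) ran the other way. So did autophagy partners (-0.30), meninges (-0.29) and choroid plexus (-0.23). Points of 1 library share its depth and dissection.

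Monocyte markers summed to 22.9 to 107 CPM with YB-1 and 11.3 to 43.9 CPM with HSP70 in the hippocampus, and to 31.2 to 153 CPM with YB-1 and 19.7 to 81.4 CPM with HSP70 in the cortex. T cell markers summed to 19.9 to 47.5 CPM with YB-1 and 17.0 to 27.3 CPM with HSP70 in the hippocampus, and to 24.96 to 77.6 CPM with YB-1 and 19.9 to 44.1 CPM with HSP70 in the cortex. Microglial markers summed to 765 to 1493 CPM with YB-1 and 732 to 1315 CPM with HSP70 in the hippocampus, and to 1015 to 1874 CPM with YB-1 and 943 to 1309 CPM with HSP70 in the cortex. Ranges overlapped between treatments for each list, with fold changes above 0 for 3 of 3 tested monocyte markers, 8 of 8 T cell and 7 of 8 microglial markers in the hippocampus, and for 4 of 4, 6 of 8 and 7 of 8 in the cortex.

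The remaining marker lists were measured in the same way. Markers of the hippocampus were above 0 in 5 of 5 tested in the hippocampus (median 0.68) and 2 of 4 in the cortex (median 0.08), and those of the cortex in 2 of 6 and 3 of 6. Values above 0 were found for 8 of 8 endothelial markers in the hippocampus (median 0.18) and 5 of 8 in the cortex (median 0.04). For B and plasma cells they were found for 5 of 5 tested markers in the hippocampus (median 0.42) and 5 of 6 in the cortex (median 0.46), and for natural killer cells for 1 of 1 and 2 of 2. Border macrophage markers were above 0 in 0 of 2 tested in the hippocampus (median -1.13) and 0 of 2 in the cortex (median -0.89). Meningeal markers were above 0 in 0 of 6 in the hippocampus (median -0.36) and 2 of 5 in the cortex (median -0.0016), and oligodendrocyte markers in 0 of 5 (median -0.21) and 4 of 5 (median 0.22). For neurons the counts above 0 were 4 of 6 in the hippocampus and 2 of 6 in the cortex, for astrocytes 3 of 6 and 2 of 6, for pericytes 2 of 5 and 4 of 5, and for choroid plexus 4 of 5 and 1 of 4. None of these markers was called between treatments in either tissue. The part of these cells in the members' treatment difference was not tested.

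The rest of the pathway was read from lists chosen with earlier results known, from ligand to target. Of the ligands, Ifng, which encodes interferon gamma, had 62 reads in all, 18 of them in the YB-1 and 2 in the HSP70 libraries of the hippocampus and 19 in the YB-1 and 23 in the HSP70 libraries of the cortex. The cortical HSP70 libraries were the deeper ones, so these reads are not on 1 scale. Ifng averaged 0.393 ± 0.341 CPM with YB-1 and 0.0427 ± 0.0590 CPM with HSP70 in the hippocampus (SD, n = 5 each). In the cortex it averaged 0.375 ± 0.275 CPM with YB-1 and 0.317 ± 0.376 CPM with HSP70, where replicate 3 held 0.937 CPM. Ifnb1, Ifna2, Ifna4, Ifnk and Ifne had no read in any library, which allows a level of up to 0.198 to 0.468 CPM depending on the depth (3 reads per library, counting error only). Receptors and kinases showed no common direction, with 3 of 7 above 0 in the hippocampus and 4 of 7 in the cortex and medians of -0.00 and 0.05. Tyk2, a kinase of the type I receptor, was at a log2 fold change of 0.29 ± 0.19 (hippocampus) and 0.56 ± 0.21 (cortex), a pair of values given in that order from here on. Ifngr2, a chain of the interferon gamma receptor, was at -0.27 ± 0.22 and -0.22 ± 0.18. Jak2 was at 0.05 ± 0.29 in the hippocampus, and Ifnar2, a chain of the type I receptor, at 0.25 ± 0.21 in the cortex.

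Among the transcription factors, 7 of 7 had fold changes above 0 in each tissue, with a hippocampal median of 0.64 and a cortical one of 0.56. Irf1 was at 0.80 ± 0.26 and 0.67 ± 0.34, and Irf8, a factor of myeloid cells, was at 0.64 ± 0.26 and 0.68 ± 0.30. In the hippocampus Irf7 was at 0.70 ± 0.36, and in the cortex Irf9 was at 0.66 ± 0.29. Of the inhibitors, 5 of 5 lay above 0 in the hippocampus and 4 of 5 in the cortex. Socs1, a brake on Jak kinases, was at 0.49 ± 0.31 and 0.77 ± 0.37, and Socs3 at 0.44 ± 0.34 and 0.39 ± 0.22. Usp18, which restrains type I signalling, was at 0.40 ± 0.34 in the hippocampus, and Ptpn2, a phosphatase, at -0.59 ± 0.32 in the cortex.

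The other family members gave 13 of 14 tested above 0 in each tissue, with medians of 0.86 and 0.93. Of all genes tested, 49.3% lay above 0 in the hippocampus and 50.9% in the cortex. The list matched 20 genes, and those too low for the filter differed in both directions in mean CPM. A low gene can pass through the treatment where it is higher, so the counts of direction in the pathway lists are no test. Ifi47, an immunity-related GTPase, was at 1.17 ± 0.35 and 0.93 ± 0.45, and among the largest hippocampal values were also Gbp8 at 1.37 ± 1.03 and Gm4951 at 1.13 ± 0.78. In the cortex the largest were Gm4841 at 1.46 ± 0.77, Gbp11 at 1.28 ± 0.99 and Gbp2b at 1.09 ± 0.59. Irgm2, the third regulator, was at 0.69 ± 0.33 and 0.69 ± 0.37. Mx2 was the exception in both tissues, at -0.27 ± 0.53 and -0.09 ± 0.49. Irgq, a relative, was at 0.12 ± 0.12 and 0.05 ± 0.15.

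Interferon gamma targets lay above 0 in 9 of 9 tested in each tissue, with medians of 0.76 and 0.76. The chemokine Cxcl9 was at 1.31 ± 0.46 and 0.85 ± 0.65, and Ciita, the master regulator of MHC class II, at 0.96 ± 0.50 and 0.88 ± 0.42. The chemokine Cxcl10 was at 1.53 ± 0.67 in the hippocampus and the peptide transporter Tap1 at 0.88 ± 0.31 in the cortex. Antiviral targets lay above 0 in 9 of 9 and 10 of 10, with medians of 0.72 and 0.47, with Oasl2 at 0.94 ± 0.37 and 0.75 ± 0.41 and Oas1a at 0.85 ± 0.32 and 0.70 ± 0.34. Rsad2 was at 1.502 ± 0.69 in the hippocampus and Ifi44 at 0.78 ± 0.79 in the cortex.

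The lists of partner genes differed from each other. Inflammasome genes lay above 0 in 3 of 4 and 4 of 5, with the adaptor Pycard at 1.16 ± 0.35 and 0.80 ± 0.25 and the protease Casp1 at 1.02 ± 0.44 and 0.54 ± 0.28. The sensor Nlrp3 was at -0.56 ± 0.45 and 0.67 ± 0.40. Autophagy genes, whose conjugation machinery places the GTPases on vacuoles in mice, lay above 0 in 2 of 7 in each tissue, with medians of -0.05 and -0.15. Atg12 was at -0.21 ± 0.27 and -0.44 ± 0.22 and Gabarapl2 at -0.11 ± 0.15 and -0.48 ± 0.15, while Atg5 was at 0.15 ± 0.26 in the hippocampus and Gabarap at 0.20 ± 0.16 in the cortex. None of these genes passed edgeR's test between treatments, where no gene passed at all.

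Tested between hippocampus and cortex were 15 other family members, 7 receptors and kinases, 7 transcription factors and 5 inhibitors. With them stood 9 interferon gamma targets, 10 antiviral targets, 5 inflammasome genes and 7 autophagy genes. Of all these lists, 1 gene was called in the fit without the pairing, against 15.9% of all genes. It was Pias1, from the list of inhibitors, at -0.32 ± 0.10 (adjusted p = 0.0258 in edgeR's test). The nearest of the others were Casp1 at -0.72 ± 0.27 (adjusted p = 0.0709) and Ifngr2, a receptor chain, at 0.34 ± 0.15 (adjusted p = 0.132). Cxcl9 was at -0.99 ± 0.42 (adjusted p = 0.139), and the remaining genes had an adjusted p of at least 0.190. Fold changes were below 0 for 11 of 15 other family members, 6 of 7 transcription factors, 7 of 9 interferon gamma targets and 8 of 10 antiviral targets, with medians of -0.19, -0.11, -0.15 and -0.21. With the animal as a block, 4 genes of these lists were called, each lower in the hippocampus, against 19.8% of all genes. They were Casp1 at -0.78 ± 0.21 (adjusted p = 0.00937 in edgeR's test), Cxcl9 at -0.88 ± 0.21 (adjusted p = 0.00601), the family member Gbp8 at -0.77 ± 0.21 (adjusted p = 0.0107) and Pias1 at -0.32 ± 0.10 (adjusted p = 0.0328). The summed CPM was lower in the hippocampus in 8 of 10 animals for the inhibitors and for the inflammasome partners, and in 4 to 7 of 10 for each of the other lists.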

How the data were processed

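RNA selected by poly(A) from hippocampus and cortex, with an integrity number of at least 8, was sequenced single-end from directional libraries, per the labels' protocols. The authors deposited 1 table per library of raw counts, as whole reads for each Ensembl identifier. The submitters' processing notes name the GRCm39 assembly and the tools Trimmomatic, STAR and featureCounts. The sources used here give no versions, annotation or strand setting, so where genes overlap or lie antisense their reads are uncertain. The 12 summary entries of each file were left out; reads outside genes made up 2.45% to 4.58% and ambiguous reads 4.12% to 4.58%.

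Symbols, chromosomes and exon lengths came from GENCODE M21 by identifier (99.4% of identifiers matched; 183 of 184 list symbols). The members and lists were chosen with earlier results of these data known. The gene tests used edgeR 4.0.16 under R 4.3.3 (TMM scaling, filterByExpr, robust quasi-likelihood F-tests, two-sided, Benjamini-Hochberg over all genes tested, threshold 0.05), within each tissue for treatments and over 4 groups for the tissues and the interaction. DESeq2 1.42.0 and other settings were alternatives, given in the closing section. Log2 CPM used a prior count of 2, and the tests were tried on simulated counts.

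P-values measure the spread between these libraries, which the labels do not tie to named animals. Correlations of deviations from group means of same-numbered libraries, over all tested genes, were 0.198 to 0.624 between the tissues of HSP70 pairs and 0.207 to 0.394 of YB-1 pairs, so equal numbers were taken as 1 animal. Own numbers matched best for 5 of 5 hippocampal HSP70 libraries and 4 of 5 YB-1 libraries. The exception was hippocampal YB-1 library 1, at 0.341 with cortical YB-1 library 5 and 0.207 with its own number. Between treatments the correlations were -0.283 to 0.496 in the hippocampus and -0.135 to 0.167 in the cortex, so the numbers do not pair the treatments. The value of 0.496, for number 1, was above those of all YB-1 tissue pairs, so the pairing of tissues by number remains an assumption. All members are named. Of other genes, the text names the 3 of each pathway list with the largest fold changes in each treatment comparison, those nearest the threshold among the 3 with the smallest p between tissues, and the 10 most like the members; Irgm2, Mx2 and Cd4 were added after their values were seen. A gene that this rule takes is not reported here.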

Additional observations from a re-analysis of the deposited data

Results flagged for a closer look

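Gbp3 in cortical HSP70 replicate 1 stood apart from the other 4 libraries of its group, at a log2 CPM of 4.47 (22.0 CPM) against 2.92 to 3.33. The gap to the nearest library was 0.738 of the range of the group, above the critical value of 0.71 for 5 libraries. Of 40 groups examined (10 members in 4 groups), 1 was marked in this way, and chance marks about 1 in 20. The same animal was also the highest of its group for Gbp3 in the hippocampus, at 12.9 CPM. The cause was not tested.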

How the results depend on the processing

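The member fold changes between treatments kept their direction under the other normalisation, DESeq2, no filter on low counts, library sizes without Bc1 and immunoglobulin genes, and the replicate block, except Gbp6 in the cortex (0.45 with the block) and the interaction of Igtp, near 0 throughout; the libraries that moved them are named above. No gene was called in the hippocampus (0 to 0 without 1 library), or in the interaction under any of these. In the agreement over animals 0 genes were called with a prior count of 0.5, the other size factors, rank correlation or any animal left out. In the cortex, DESeq2 called 4 genes, the fit with no filter 9, and leaving out 1 library gave 0 to 1, the 1 without HSP70 replicate 3; the cause was not tested. Between treatments the replicate block called 0 genes in each tissue, and the numbers do not pair the treatments. Between tissues, the count of 2320 became 2888 with the replicate block and 2080 to 2437 without 1 library. Fewer samples gave 775 with YB-1 libraries only, 1065 with these and the replicate block, 1146 with HSP70 libraries only, and 1802 with these and the block. Without the block, DESeq2 called Gbp5 (-0.61, adjusted p = 0.0352), and edgeR called it in 5 of 20 fits that left out a library. With the replicate block and without YB-1 animals 1 and 5, an alternative chosen after seeing the data, Gbp5 and Gbp9 passed (adjusted p = 0.00386 and 0.0349 in edgeR's test) and Gbp3 did not (adjusted p = 0.103). The fits that left out each animal or used 1 treatment with the block were also chosen after seeing the data. Gbp6 and Gbp7 are limited by depth, with 0 to 80 and 4 to 129 reads per library.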
